A study of Mus musculus with 4 samples.

Results

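Pitx1 binding around Meis1 and Meis2, a pair of genes that mark the proximal part of the limb bud, was described from chromatin immunoprecipitation and sequencing (ChIP-seq) peaks of embryonic hindlimb buds. Peaks were taken when their midpoint lay on chromosome 11 between 18.2 and 19.3 Mb, a window of 1.1 Mb around Meis1, or on chromosome 2 between 115.2 and 116.6 Mb, a window of 1.4 Mb around Meis2 (mm9 build). Of 14753 peaks in replicate 1 and 25027 in replicate 2, the windows held 33 and 58. A replicated region is the union of replicate 1 and replicate 2 peaks that overlap by at least 1 bp, and 26 of the 10274 such regions fell in the windows, 12 around Meis1 and 14 around Meis2. The windows were set by gene position and not by a cutoff on any measured value, but they were chosen with earlier results of these data known.

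The buds were taken at E11.5 (days of embryonic development) from ICR mice of wild-type genotype, with no treatment named in the labels. An antibody to Pitx1 was used for 2 libraries. The other 2 are of input chromatin, taken without the antibody step, and no peak list of theirs was analysed here. DNA from 3 ChIPs was used for the libraries, and nothing in the labels says whether the replicates came from separate litters, so the spread between them may be technical. All libraries are from whole hindlimb buds, so binding in proximal cells and binding in distal cells cannot be told apart. The lists hold no expression values, and the tissue label was not checked against marker genes.

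Pitx1 is a homeodomain transcription factor of the bicoid class that is made in the hindlimb bud and not in the forelimb bud, and it takes part in giving the hindlimb its identity. Meis1 and Meis2 encode related homeodomain proteins of the TALE class, which bind DNA together with Pbx proteins, another branch of that class, and with Hox proteins. In the early limb bud both genes are active in the proximal part, which forms the upper limb segment. Retinoic acid favours their activity there, and fibroblast growth factors from the tip of the bud restrict it distally.

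Both genes are transcribed toward lower coordinates. Their limits were known only to the nearest 10 kb, as about 18.78 to 18.92 Mb for Meis1 (140 kb) and about 115.69 to 115.89 Mb for Meis2 (200 kb), so distances from a gene's start below carry that rounding. In the gene order of the GRCm38 annotation, the next protein-coding gene past the end of Meis1 is Etaa1, a factor of the response to DNA replication stress, and the next one upstream of its start is Spred2, an inhibitor of Ras signalling. For Meis2 they are BC052040 past the end and Tmco5 upstream. That annotation is of another build than the peaks, so peaks were not placed in exons, introns or untranslated regions, nor in those neighbours. Peaks past the end of Meis2 may lie within BC052040.

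Because peaks were called close to the start of each gene, the promoters are shown here as RefSeq gives them, from 250 bases before to 50 bases after 1 annotated start, 5′ to 3′ on the minus strand. The build is GRCm38.p6, so these coordinates cannot be set against the mm9 peak positions. The Meis1 promoter lies at chr11:19018920-19019219 and the Meis2 promoter at chr2:116064570-116064869. Capitals mark the homeodomain core TAAT or its reverse complement ATTA.
Meis1: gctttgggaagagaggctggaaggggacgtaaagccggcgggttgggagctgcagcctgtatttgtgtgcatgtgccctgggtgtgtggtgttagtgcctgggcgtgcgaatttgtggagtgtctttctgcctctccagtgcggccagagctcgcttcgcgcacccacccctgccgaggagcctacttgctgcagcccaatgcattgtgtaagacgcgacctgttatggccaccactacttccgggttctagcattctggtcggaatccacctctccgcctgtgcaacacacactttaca
Meis2: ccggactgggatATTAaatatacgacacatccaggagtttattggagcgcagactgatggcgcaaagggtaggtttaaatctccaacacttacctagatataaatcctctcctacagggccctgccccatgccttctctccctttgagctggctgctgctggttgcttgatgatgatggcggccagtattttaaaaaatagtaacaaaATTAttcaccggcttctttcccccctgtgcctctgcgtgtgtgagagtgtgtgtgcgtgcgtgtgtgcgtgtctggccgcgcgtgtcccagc
The Meis2 promoter holds 2 matches to the core and the Meis1 promoter 0, and 58.0% of the 32851 promoters of this length in the table hold at least 1. The longer bicoid-class motif TAATCC (reverse complement GGATTA, both strands, which contains the core) was in neither promoter and in 7.06% of all promoters. Among 11 genes of the Meis, Pbx, Pknox and Tgif families, 7 had a promoter in the table, and TAATCC was found in 1 of them, in 1 of the 5 promoters listed for Tgif1, a TALE-class repressor. A match or its lack describes these letters alone.

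Replicated Pitx1 regions were denser around both genes than over the other autosomes. The Meis1 window held 12 regions, or 10.9 per Mb (95% exact Poisson interval 5.64 to 19.1). The Meis2 window held 14, or 10 per Mb (5.47 to 16.8). Over all 19 autosomes the rate was 4.11 per Mb, from 10145 regions. Set against the autosomes without these windows, the ratio was 2.66 for Meis1 (exact 95% interval 1.37 to 4.64) and 2.44 for Meis2 (1.33 to 4.09). The windows did not differ from each other beyond counting error, with a ratio of Meis1 to Meis2 of 1.09 (0.461 to 2.54).

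Such a density was uncommon but not rare along the genome. When the autosomes were divided into adjoining windows of the same length, 7.13% of 2231 windows held as many regions as the Meis1 window or more. For the Meis2 window the share was 8.75% of 1748 windows. The median window held 3 and 4 regions, and the fullest held 37 and 44. The counts varied among windows by much more than a Poisson count would, with a variance 4.52 and 4.91 times the mean, so the Poisson intervals given here are too narrow. In the distribution of these counts, both genes stand in the upper tail without being at its end.

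**Figure D1:**
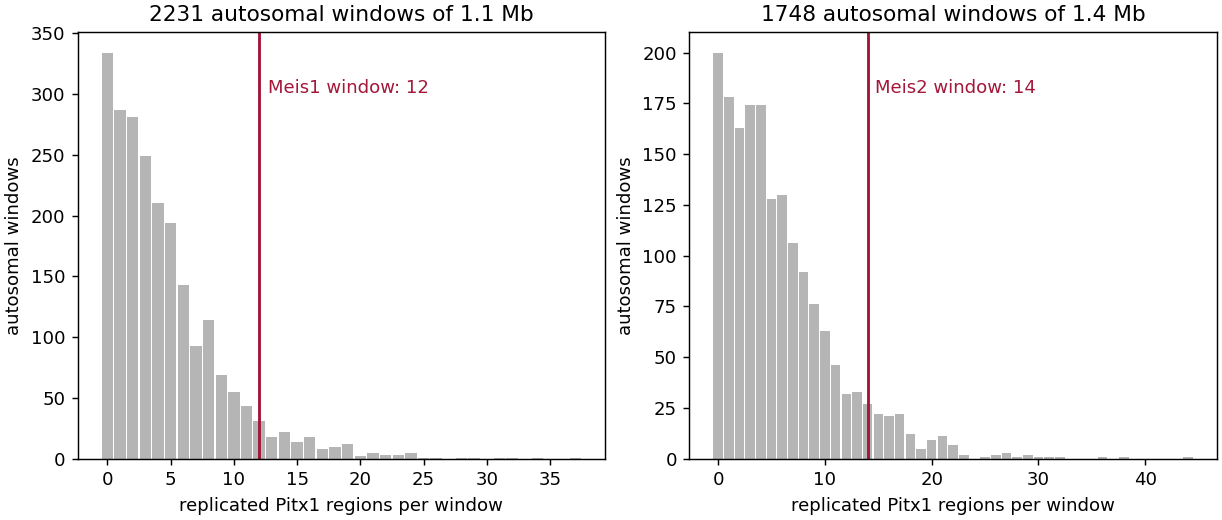
Number of replicated Pitx1 regions in adjoining autosomal windows of 1.1 Mb (left) and 1.4 Mb (right); bars count windows, and the red line marks the window of the named gene. The Meis1 window with 12 regions and the Meis2 window with 14 lie in the upper tail, with windows of up to 37 and 44 regions beyond them.

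Each library alone gave the same order. In replicate 1 the Meis1 window held 17 peaks, or 15.5 per Mb, which was 2.62 times the rate over the other autosomes (1.53 to 4.20). In replicate 2 it held 32 peaks, or 29.1 per Mb and 2.91 times that rate (1.99 to 4.11). The Meis2 window was less dense than the Meis1 window in both, with 16 peaks in replicate 1 (1.94 times, 1.11 to 3.15) and 26 in replicate 2 (1.86 times, 1.21 to 2.72). The intervals of the windows overlap in each library.

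The share of peaks that recurred was close to the background around Meis1. There, 12 of 17 replicate 1 peaks were shared (70.6%, Wilson 95% interval 46.9 to 86.7%), against 69.9% over the autosomes, and 12 of 32 replicate 2 peaks (37.5%, 22.9 to 54.7%), against 42.6%. Around Meis2, 14 of 16 replicate 1 peaks were shared (87.5%, 64.0 to 96.5%) and 14 of 26 replicate 2 peaks (53.8%, 35.5 to 71.2%). Both Meis2 shares were above the autosomal ones, but each interval includes them. Every one of the 26 regions joined 1 peak of each list. Each also held 1 position of the further list of 1 bp positions that the authors deposited, as did 99.7% of autosomal replicated regions. Those positions lay a median of 50.8 bp (Meis1) and 101 bp (Meis2) from the midpoint of the replicate 2 peak.

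**Figure D2:**
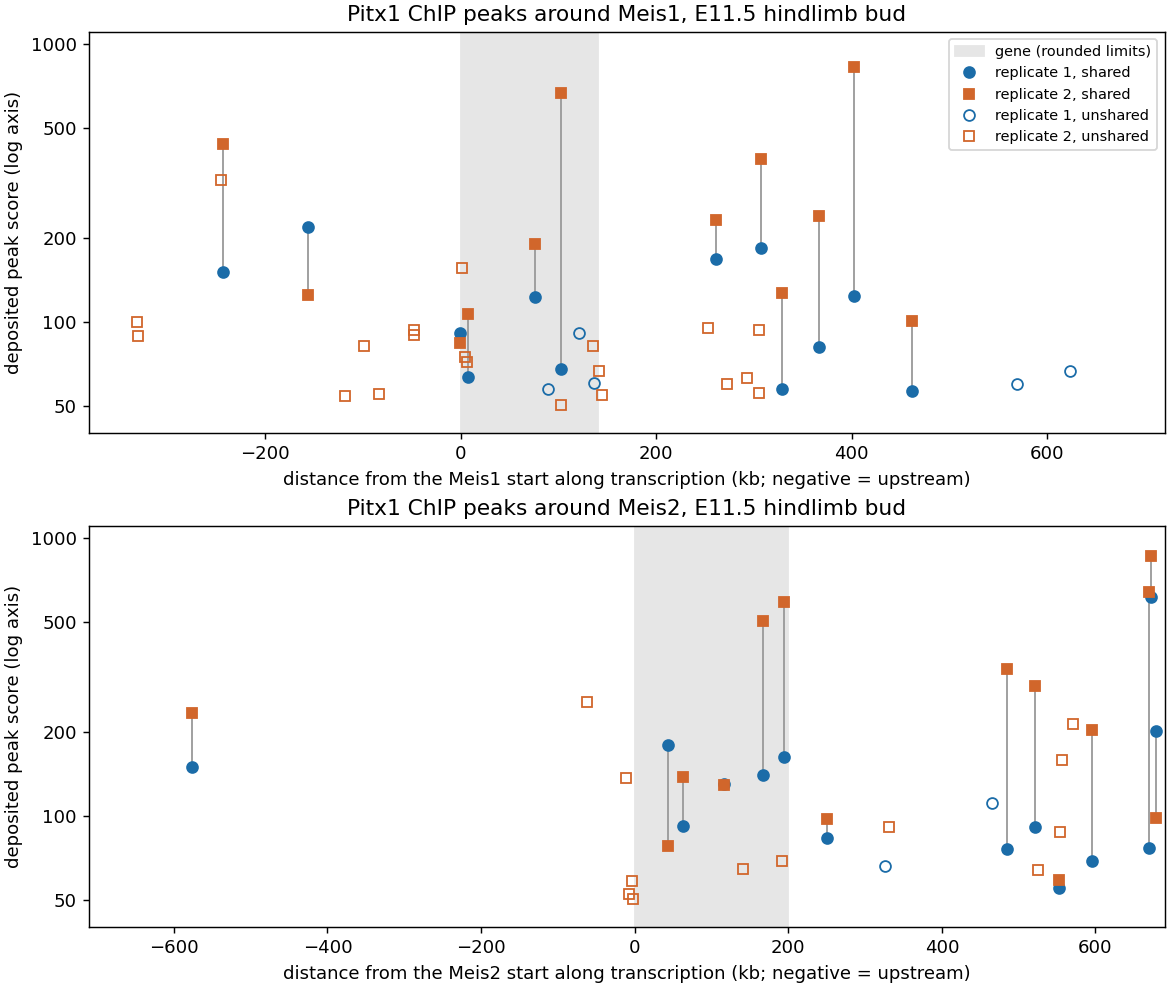
Pitx1 ChIP peaks in the Meis1 window (top) and the Meis2 window (bottom), by distance from the rounded gene start along the direction of transcription (kb, negative is upstream) and by deposited score (log axis). Circles are replicate 1 and squares replicate 2, filled where shared and joined by a grey line, and open where not; the grey band is the gene. Upstream of Meis2, the only replicated region is 576 kb from the start.

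Counted by position, the gene bodies were the densest stretches of both windows. Within the rounded limits of Meis1 there were 3 replicated regions in 140 kb, and 5.52% of autosomal stretches of that length held as many or more. Past its end lay 6 in 580 kb (12.1% of stretches), and upstream of its start 3 in 380 kb (21.9%). One of these 3 lay only 0.496 kb outside the rounded start. It may belong to the gene, which would change both counts. Within Meis2 there were 5 regions in 200 kb, a count reached by 2.52% of stretches. Past the end of Meis2 lay 8 regions in 490 kb (4.18%), 3 of them within 10.1 kb near the window's edge. Upstream only 1 was found in 710 kb. A count of 1 or 0 is common, since 41.7% of autosomal stretches of 710 kb held as few.

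**Figure D3:**
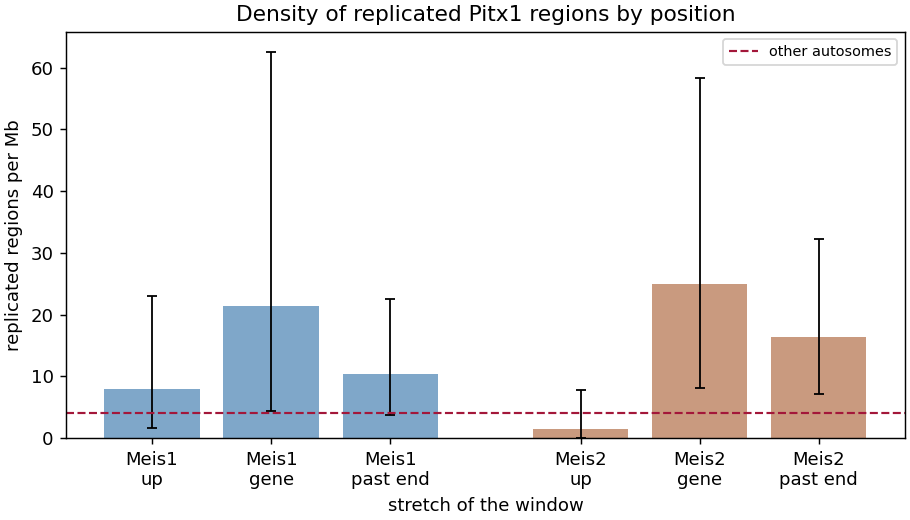
Replicated Pitx1 regions per Mb upstream of the start, within the gene and past the end, for Meis1 and Meis2; error bars are 95% exact Poisson intervals and the dashed line is the rate over the other autosomes. The bars for the genes are the tallest in each window, and the bar upstream of Meis2 is the only one below the line.

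As ratios to the other autosomes, the gene stretches came to 5.22 for Meis1 (1.08 to 15.3) and 6.09 for Meis2 (1.98 to 14.2). The stretch past the end came to 2.52 (0.925 to 5.49) and 3.98 (1.72 to 7.84), and the upstream stretch to 1.92 (0.397 to 5.62) and 0.343 (0.00869 to 1.91). These rest on 1 to 8 regions each. The intervals overlap within the Meis1 window, while around Meis2 that of the upstream stretch ends below that of the gene, by counting error alone, which is too narrow here. The division into stretches follows the gene, but how often such stretches occur was counted after their values were seen.

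Around the start of Meis1, peaks of both libraries lay close together. A replicated region from 18920060 to 18920933 fell within 10 kb of the rounded start and was of middling strength, with a score of 91.4 in replicate 1 (rank 6194 of 14753) and 83.8 in replicate 2 (rank 13165 of 25027). The score is the peak caller's value for each peak as deposited by the authors, and rank 1 is the strongest of a list. Only 190 bp from that region, replicate 2 had an unshared peak from 18918515 to 18919869, at 1355 bp the widest of its list in the window (score 156.7). A second replicated region lay from 18911784 to 18912983, about 7.62 kb inside the gene, with scores of 63.3 and 106.8. Replicate 2 added unshared peaks from 18912988 to 18913523 (score 72.0) and from 18914976 to 18915752 (score 74.9). So 5 replicate 2 peaks and 2 replicate 1 peaks were called from 18911784 to 18920933, none of them in the highest score decile of its list.

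Meis2 had no replicated region at its start. Replicate 2 alone had 3 weak peaks there, from 115891318 to 115891581 (score 50.5), from 115893394 to 115893639 (score 58.4) and from 115897165 to 115897529 (score 52.6). All 3 lay near the list's lowest score, 50.01. A stronger replicate 2 peak followed from 115901255 to 115902097 (score 137), about 11.7 kb upstream of the rounded start. Replicate 1 had no peak nearer than 43.8 kb to any of these 4. The genes therefore differ at their starts in whether a replicated region was called. Signal below the calling threshold was not analysed, so this does not show that Pitx1 binding there is absent.

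Inside Meis1 the 2 further replicated regions differed in how the libraries ranked them. The one from 18816486 to 18817399, about 103 kb from the start, scored 67.6 in replicate 1 (rank 9722) and 663 in replicate 2 (rank 474). It thus lay far down one list and near the top of the other, at 65.9% and 1.89% of the way down. The one from 18843847 to 18844831, about 75.7 kb from the start, was more even, with scores of 123 (rank 3897) and 190 (rank 4490). Of the 6 replicate 1 peaks inside the gene, 3 were not overlapped by replicate 2, with scores of 57.3 to 91.7. Over the autosomes, 69.9% of replicate 1 peaks were shared. One of the 3 unshared peaks, from 18783376 to 18784134, was 873 bp from a replicate 2 peak.

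All 5 replicate 1 peaks inside Meis2 were replicated, where 69.9% of autosomal replicate 1 peaks were. Whether the genes differ in this was not tested. By summed rank the strongest was from 115694412 to 115695671, within 10 kb of the rounded end of the gene, with scores of 162 in replicate 1 (rank 2483) and 589 in replicate 2 (rank 616). Next came the region from 115722807 to 115723962 (scores 141 and 501, ranks 3164 and 863). Both belong to the best 25% of each list. The region from 115773392 to 115774263 scored 131 and 129, which was 24.1% down the replicate 1 list and 31.0% down the other. Nearer the start, the region from 115826834 to 115827626 scored 92.0 and 138. The one from 115845846 to 115847472, about 43.3 kb from the start, went the other way, with 179 in replicate 1 and 78.2 in replicate 2. In rank, it was 14.3% down the first list and 57.6% down the other.

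Past the end of Meis1, the 6 replicated regions were spaced 20.5 to 58.8 kb apart. The strongest of the window by summed rank was among them, from 18612035 to 18613327, about 167 kb past the end, with scores of 184 (rank 2022) and 385 (rank 1470). The highest single score of the window belonged to the region from 18517283 to 18518031, at 824 in replicate 2 (rank 275) but 124 in replicate 1 (rank 3852). The region from 18658336 to 18659762 scored 168 and 232. It was the nearest to the end of the gene on this side, at 121 kb. The region from 18553421 to 18554017 had scores of 81.1 and 240. The remaining regions, from 18457966 to 18458500 and from 18590679 to 18591500, were weak in replicate 1 (56.4 and 57.6) and scored 101 and 127 in replicate 2. Each of these 6 stood higher in the replicate 2 list than in the replicate 1 list, as a percentage of list length. So did 6427 of 9763 autosomal pairs. In rank itself, the region from 18658336 to 18659762 stood lower in replicate 2 (rank 3324) than in replicate 1 (rank 2330).

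Past the end of Meis2, the strongest region of both windows was found, from 115217359 to 115218809, with scores of 614 in replicate 1 (rank 114) and 857 in replicate 2 (rank 241). By summed rank it was number 129 of the 10145 autosomal regions. It lay 472 kb past the end of the gene and close to the window's edge. Its neighbour from 115219482 to 115220632, only 672 bp away, scored 76.5 and 638, and the one from 115210524 to 115212142 scored 202 and 98.3. These 3 regions within 10.1 kb were the only run of 3 or more regions with midpoints under 10 kb apart in either window, where 5.99% of autosomal regions lay in such runs. Their ranks did not move together. The region in the middle was the strongest of the run in both lists, while its near neighbour was 2.05% down the replicate 2 list but 54.7% down the other, and the outlying one was 11.6% down the replicate 1 list and 43.2% down the other.

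Of the other 5 regions past the end of Meis2, those from 115367563 to 115368747 (scores 91.5 and 293) and from 115404906 to 115406045 (76.4 and 338) were in the highest score decile of replicate 2 only. The region from 115294215 to 115294959 scored 68.9 and 203. That from 115638245 to 115639556, 51.1 kb past the end, scored 83.3 and 97.6. The weakest replicated region of the window in both lists, from 115336899 to 115338849, scored 55.3 and 58.8, although its replicate 1 peak was the widest there at 1951 bp.

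Upstream of Meis1, apart from the region at the start, the other 2 replicated regions were far away. The region from 19162498 to 19163450, about 243 kb upstream, scored 151 (rank 2799) and 436 (rank 1175) and was second in the window by summed rank. The region from 19076311 to 19076991, about 157 kb upstream, was the strongest of the window in replicate 1 (score 219, rank 1471) but not in replicate 2 (score 125, rank 8016). Upstream of Meis2, the single replicated region from 116465320 to 116466515 scored 150 and 235. Between it and the next peak of either library lay 513 kb without a call, from 61.9 to 575 kb upstream of the start. Its distance to the next replicated region, inside Meis2, was 618 kb, and 9.19% of the 10126 gaps between neighbouring autosomal regions were at least as long. Between neighbouring regions inside the Meis1 window the longest gap was 157 kb, a length that 36.2% of autosomal gaps reached. The stretch from the low edge of that window to its first replicated region, which starts at 18457966, was longer. It was not counted as a gap, because the region before it lies outside the window.

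In replicate 1 the median score of the regions was 107 around Meis1 and 111 around Meis2, against 97.8 for all autosomal replicated regions. Above that autosomal median lay 6 of 12 and 7 of 14. In replicate 1, 1 region in each window was in the highest score decile of the list, where 14.4% of autosomal regions were. In replicate 2 the medians were 211 and 219 against 150, with 7 of 12 and 8 of 14 regions above the autosomal median. In the highest decile of replicate 2 were 4 of 12 and 6 of 14, against 23.1% of autosomal regions. With so few regions, these counts describe the windows and do not show that they differ from other replicated regions.

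**Figure D4:**
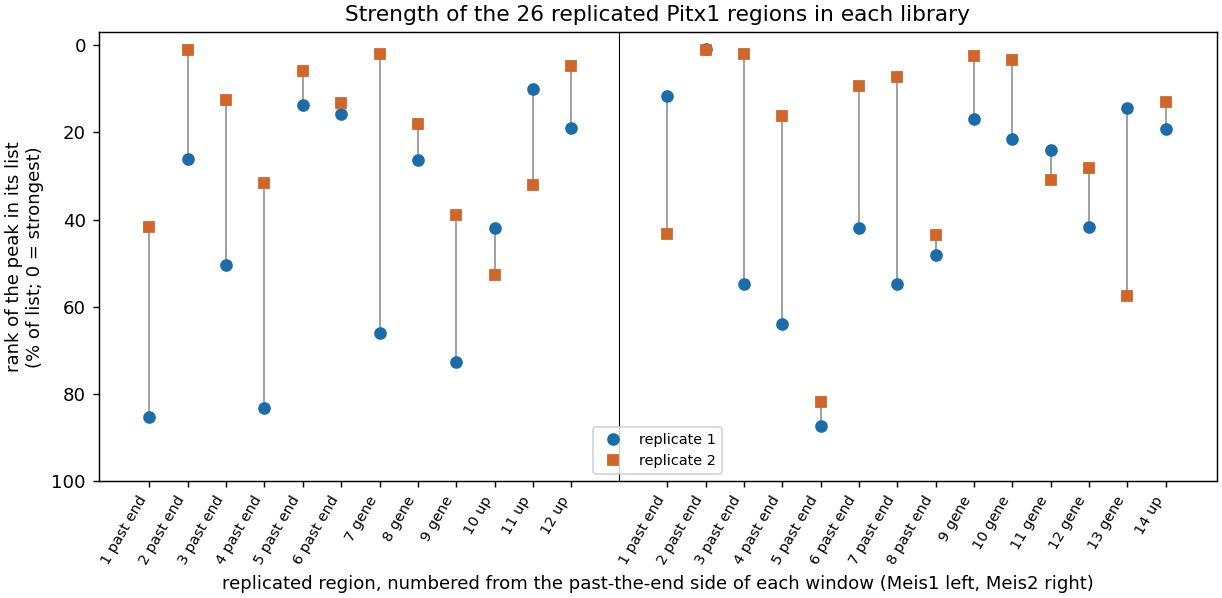
Rank of the peaks of each of the 26 replicated regions as a percentage of its library's list (axis inverted, 0 is the strongest), for replicate 1 (circles) and replicate 2 (squares); regions are numbered by coordinate within each window, Meis1 on the left. The symbols of a region are 0.190 to 64.0 percentage points apart. By this percentage, 20 of the 26 regions rank better in replicate 2, as did 6427 of 9763 autosomal pairs.

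The libraries ordered these regions differently. The positions of a region in the lists, as a percentage of each list, were a median of 20.03 percentage points apart over the 26 regions, against 15.8 over all autosomal replicated regions. Spearman's rho between the scores was 0.221 across the 26 regions, which share their libraries and are not independent. It was 0.343 around Meis1, 0.191 around Meis2 and 0.555 across 9763 autosomal pairs joined 1 to 1. No interval was computed for rho, so a difference from the autosomes is not shown. In the best 50% of both lists were 6 regions of Meis1 and 9 of Meis2, or 15 of 26, where 53.5% of autosomal regions were. As a percentage of list length, 20 of the 26 stood higher in replicate 2, as did 6427 of the 9763 autosomal pairs. The replicate 2 list is the longer (25027 peaks against 14753), so an equal rank gives a lower percentage there. Read depth is not known, so score values themselves are not comparable between the libraries. Replicate 1 peaks were the wider in 21 of the 26 pairs and in 9011 of the 9763 autosomal pairs. The median ratio of replicate 1 to replicate 2 width was 1.30 over all 26 pairs, against 1.45 over the autosomes. Midpoints of the paired peaks differed by a median of 43.5 bp around Meis1 and 132 bp around Meis2, against 58.5 bp.

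Peaks called in 1 library only had lower median scores than shared peaks of that library in both windows, as over the autosomes. Median scores of unshared autosomal peaks were 64.1 in replicate 1 and 71.6 in replicate 2. In the same order, they were 60.2 and 78.5 around Meis1, and 88.8 (of only 2 peaks) and 78.5 around Meis2. Around Meis1, 5 replicate 1 peaks (scores 57.3 to 91.7) and 20 replicate 2 peaks (50.1 to 325) were unshared. The strongest of replicate 1 was from 18798191 to 18799294 inside the gene (score 91.7), with 12.8 kb between it and the closest call of the other library. The strongest of replicate 2 was from 19164710 to 19165265 upstream (score 325, rank 1952), only 1259 bp from the replicated region at 19162498. Of the 20, 8 lay within 5 kb of a replicate 1 peak, a share that was not computed over the autosomes. Around Meis2, replicate 1 had 2 unshared peaks, the stronger from 115423686 to 115424907 past the end (score 112), and replicate 2 had 12 (50.5 to 257). The strongest of these was from 115951429 to 115951914, about 61.7 kb upstream of Meis2 (score 257, rank 2848), and the closest replicate 1 peak was at a distance of 104 kb. It outscored 8 of the 14 replicated regions of the window in its own library.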

How the data were processed

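Pitx1 ChIP-seq and input libraries were made from hindlimb buds. Per the labels' protocols, chromatin was fixed in 1% formaldehyde for 30 minutes and sheared to 200 to 600 bp. The submitters' processing notes name the mm9 build, MACS 1.4.2, Bowtie 0.12.8, bedtools 2.16.2, and CASAVA in versions 1.7 and 1.8.2. Their roles, their settings and any use of the input in peak calling were not given in the sources used here. Peak names restart in each list, so peaks were called per library.

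The value used is the peak score deposited by the authors for each peak. By the caller's usual convention it follows the p-value, but no header says so. Scores were used to describe and rank peaks within a list. The deposited list of positions has no score. Read counts were not used, so depth is unknown, and intervals cover counting error only.

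A peak or region belongs to a window by its midpoint. Autosome length ran from the first base to the last peak of each chromosome. Stretches where no peak could be called were not taken out, which may lower the autosomal rate and the counts of tiling windows. Tiling windows and stretches that touch either gene's window were left out. Intervals are 95% (exact Poisson, exact conditional binomial for ratios, Wilson for shares), with no p-values, since there is 1 condition. Positions are counted from 1. Regions described singly were, per window, the 8 with the lowest summed rank, the 3 nearest the start, all inside the gene and the strongest unshared peak of each library; the others were added after their values were seen, as were the TAAT search and the counts of stretches. Windows, genes and lists were chosen with earlier results of these data known. The counting was tested on simulated lists. Computation used scipy 1.17.1 with pandas 2.3.3 and numpy 2.4.6 in Python 3.11.15, and plots used matplotlib 3.10.9. The alternatives tried were stricter scores, equal list lengths, other definitions of sharing, merged neighbours, single replicates, and other windows and references. The genome of the peaks' build was not used here, so peak sequences are not shown.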

Additional observations from a re-analysis of the deposited data

How the results depend on the processing

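No paired analysis was possible because only the Pitx1 libraries have peak lists, so the shared numbers of the inputs pair nothing. The rate relative to the other autosomes was that of replicated regions, or of the other library's peaks when 1 replicate was left out. It stayed above 1 under all 10 alternatives run. It ran from 2.35 to 3.61 for Meis1 and from 1.86 (replicate 2 peaks alone) to 2.93 for Meis2. Its interval reached below 1 when the lower-scoring 50% of each list was dropped for Meis1 (0.911), in the best 25% for both (0.496 and 0.687), and with the gene and 200 kb on each side for Meis2 (0.894, from 6 regions). The number of replicated regions was 6 around Meis1 and 9 around Meis2 in the best 50%, and 3 and 4 in the best 25%, which hold fewer peaks. With each replicate left out in turn, the other library's peaks numbered 17 to 32 around Meis1 and 16 to 26 around Meis2. The share of replicate 1 peaks that recurred around Meis2 came to 57.1% among the best 25%, where 76.6% of autosomal peaks recurred, and to 62.5% when overlap had to be 50% of both peaks, where 57.7% did; the cause was not tested. The other shares moved less than their intervals. Gene limits rounded to 10 kb and unknown read depth limit statements on gene starts and on peaks called in 1 library.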
